A study of Mus musculus with 8 samples.

Results

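Macrophages sense bacterial products at the cell surface through a small set of Toll-like receptors (TLRs) and the proteins that hand ligands to them, and 9 such genes were followed here: Tlr1, Tlr2, Tlr4, Tlr5, Tlr6, Cd14, Ly96, Cd180 and Ly86. They were chosen by name, because their products act at the plasma membrane. No measured value entered that rule, although earlier results of these data were known. All 9 were among the 26939 genes of the deposited tables, and all 9 passed the filter on low counts in every comparison.

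The cells were tumor-associated macrophages (TAMs) flow-sorted on CD45, CD11b and F4/80, without Gr-1 and without dead cells, from orthotopic EO771 tumors, a mouse mammary carcinoma line grown in the mammary fat pad of female mice aged 8 to 14 weeks, and collected on day 21. There were 4 groups of 2 bulk poly-A RNA-seq libraries, namely control and αMARCO-treated WT mice and control and αMARCO-treated Unc93b1 3d/3d mice. All groups were on a C57BL/6J background and carried the same tumor. The 3d allele is a germline point mutation of Unc93b1, whose product escorts the endosomal receptors TLR3, TLR7 and TLR9 out of the endoplasmic reticulum, so it is present in every cell of the mouse and not in TAMs alone. αMARCO is the rat IgG1 antibody clone ED31 against the scavenger receptor MARCO, given intravenously at 100 µg on days 3, 6, 9 and 12. Each control library was pooled from 3 mice. The control animals are called untreated in 1 place and PBS or isotype treated in others, which could not be settled. For 1 Unc93b1 3d/3d control library the genotype field reads 3d/4d whereas its title reads 3d/3d.

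Toll-like receptors are membrane proteins with a leucine-rich ectodomain that binds the ligand and a cytoplasmic TIR domain that recruits the adaptor MyD88 and, for TLR4 inside endosomes, also TRIF. TLR2 pairs with TLR1 to detect triacylated lipopeptides and with TLR6 to detect diacylated ones, TLR5 detects flagellin, and TLR4 detects lipopolysaccharide only when bound to MD-2, the product of Ly96. CD14 passes lipopolysaccharide and lipopeptides to TLR4 and TLR2. CD180 is a TLR4-like protein without a signaling TIR domain that needs MD-1, the product of Ly86, to reach the cell surface.

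Of these genes, Tlr5 was the only one called in any comparison, which took both an edgeR p adjusted over all genes up to 0.05 and a change by 0.5 or more on the log2 scale in either direction. Tlr5 mRNA was lower in WT control TAMs than in Unc93b1 3d/3d control TAMs and was higher after αMARCO in WT mice. Of all genes tested, 13% were called in the former comparison and 20.7% in the latter. Tlr2 and Cd14 reached their highest levels in both Unc93b1 3d/3d αMARCO libraries, by 2.32-fold and 2.69-fold over the Unc93b1 3d/3d controls, but neither was called. The remaining 6 genes differed by at most 0.49 on the log2 scale between the groups of any comparison, with the largest value that of Tlr4 in WT over Unc93b1 3d/3d under αMARCO. That limit rested on both Unc93b1 3d/3d αMARCO libraries. Without the first, WT over Unc93b1 3d/3d under αMARCO was 0.79 for Tlr4, 0.66 for Tlr1, -0.67 for Ly86 and -0.64 for Ly96. With the same library left out, αMARCO over control in Unc93b1 3d/3d mice was 0.71 for Ly86, -0.58 for Cd180 and -0.58 for Tlr4.

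Positions are from the deposited tables on GRCm38. Tlr1 (ENSMUSG00000044827, chr5:64924679-64933563, minus strand) and Tlr6 (ENSMUSG00000051498, chr5:64952031-64960097, minus strand) are neighbors. Tlr2 (ENSMUSG00000027995) is at chr3:83836272-83841767 on the minus strand, Tlr4 (ENSMUSG00000039005) at chr4:66827584-66930284 on the plus strand and Tlr5 (ENSMUSG00000079164) at chr1:182954788-182976044 on the plus strand. Ly96 (ENSMUSG00000025779, chr1:16688051-16709611), Cd180 (ENSMUSG00000021624, chr13:102693558-102739629) and Ly86 (ENSMUSG00000021423, chr13:37345208-37419036) are on plus strands. All 9 are annotated as protein coding. Each value is a sum over the exons of a gene, so transcript isoforms were not resolved.

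Tlr1 and Tlr6 share sequence, which bears on how reads were assigned. Their coding sequences in GENCODE M21 hold an identical run of 229 bases, at bases 1468 to 1696 of the 2385 coding bases of Tlr1 and bases 1507 to 1735 of the 2418 coding bases of Tlr6. The last 60 bases of that run and the 60 bases after it are shown because the 2 genes first part there, with the differing bases in capitals.
Tlr1, coding bases 1637 to 1756: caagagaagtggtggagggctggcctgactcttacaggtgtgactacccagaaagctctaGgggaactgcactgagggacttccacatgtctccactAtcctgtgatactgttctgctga
Tlr6, coding bases 1676 to 1795: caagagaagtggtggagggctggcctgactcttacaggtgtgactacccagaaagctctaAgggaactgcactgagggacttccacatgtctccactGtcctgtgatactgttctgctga
In all, 340 of the 3307 stretches of 75 bases in Tlr1 transcripts were also in Tlr6, and 340 of the 3677 of Tlr6 in Tlr1. Counting every other gene, 351 of the Tlr1 stretches were shared. A read inside such a stretch cannot be assigned by its own bases, so the values of both genes carry some uncertainty. Reads were paired, and a mate outside the stretch could assign its fragment. The length of 75 bases was a choice, so these shares do not measure the uncertainty. Cd180 overlaps Mast4, which runs on the opposite strand, and 113 of its 4576 stretches were also in Mast4 transcripts. Whether counting used strand is not given in the sources used here, so reads of this pair cannot be told apart there. Tlr2, Tlr4, Tlr5, Cd14, Ly96 and Ly86 shared no such stretch with another gene.

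The 250 bases before the RefSeq start site (GRCm38.p6) are shown for Tlr5, the gene that was called, and for Tlr2, the receptor with the highest level in the Unc93b1 3d/3d αMARCO libraries. Capitals mark matches to 5 patterns searched on both strands: GGGANTTCC for NF-κB, TTGCNNAA for C/EBP, TGANTCA for AP-1, GAGGAAGT for PU.1 and TCANGTGA for an E-box of the MiT/TFE type. The NF-κB pattern was settled after the Tlr2 sequence had been seen.
Tlr5, chr1:182954538-182954787, plus strand: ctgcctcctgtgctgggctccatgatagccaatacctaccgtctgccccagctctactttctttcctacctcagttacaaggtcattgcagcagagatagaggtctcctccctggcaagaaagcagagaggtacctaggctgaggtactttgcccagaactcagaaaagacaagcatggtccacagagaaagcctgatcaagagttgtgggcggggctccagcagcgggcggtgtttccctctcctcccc
Tlr2, chr3:83841609-83841858, minus strand: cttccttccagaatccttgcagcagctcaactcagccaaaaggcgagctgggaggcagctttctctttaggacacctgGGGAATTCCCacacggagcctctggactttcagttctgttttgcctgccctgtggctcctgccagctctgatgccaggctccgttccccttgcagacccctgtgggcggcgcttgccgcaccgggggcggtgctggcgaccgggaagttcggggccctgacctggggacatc
The Tlr2 window held the NF-κB pattern on both strands, in overlapping matches at positions -172 and -171 from the start site, and 1.43% of all 32851 promoter windows of that length held this pattern. The Tlr5 window held no match to any of the 5 patterns, which says only that these letters are not in it. The other patterns were in 9.56% of windows for C/EBP, 6.75% for AP-1, 2.44% for PU.1 and 3.45% for the E-box. RefSeq windows were found for 6 of the 9 genes. Among those not printed, 1 of the start sites of Tlr1 had the PU.1 pattern and 1 of those of Tlr6 the C/EBP pattern.

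Library totals ranged from 15182618 to 26411936 counts, and the lowest count of a member in any library was 155, for Tlr5 in the second WT control. Of the genes behind the sort, Adgre1, which encodes F4/80, was at 331 to 720 CPM (counts scaled to library size, with TMM factors). Of the genes for the Gr-1 antigens, Ly6g was at no more than 0.842 CPM, whereas Ly6c2 was at 86.1 to 183 CPM and Ly6c1 at 6.17 to 17.7 CPM. Csf1r, the receptor of the macrophage growth factor CSF1 and no part of the sort, was at 904 to 1131 CPM. Marco, the target of the antibody, was at most 0.942 CPM in any library. Unc93b1 mRNA was 848 and 965 CPM in WT controls and 539 and 660 CPM in Unc93b1 3d/3d controls, a difference of 0.58 ± 0.12 (log2, SE) with an edgeR adjusted p of 0.0125. It was called in 7 of 12 alternatives, lay between 0.45 and 0.73 with 1 library left out and had an adjusted p of 0.155 in 1 model over all 8 libraries. The 3d allele is a point mutation, so this level does not check the labels. The Unc93b1 3d/3d αMARCO libraries stood apart from each other: 23.7% of 16620 genes differed by more than 1 log2 unit between them, against 4.66% to 8.42% in the other groups. The fitted differences of Tlr2, Tlr4, Tlr5 and Cd14 given below that involve that group therefore also carry the values with each of its libraries left out. Such a fit holds 1 library of that group and takes it to vary as the others do. Calls in such a fit do not measure the spread within that group. In bulk RNA, fewer cells of a type and less RNA per cell cannot be told apart. Nothing in the labels says that replicates of αMARCO groups came from separate mice, so p-values measure the spread between these libraries only.

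Compared per length, as FPKM (fragments scaled for gene length and library size, from the scaled CPM and the deposited gene length), the order of the 9 genes was led by Cd14, the most abundant in 8 of 8 libraries, with 302 to 1272 FPKM. Tlr2 at 43.9 to 131 FPKM and Ly86 at 45.9 to 84.2 FPKM followed, exchanging the next places between libraries. Tlr1 (31.7 to 51.8 FPKM) and Cd180 (26.3 to 47.0 FPKM) overlapped across the libraries, as did Ly96 (8.13 to 16.3 FPKM) and Tlr4 (7.66 to 13.3 FPKM). Tlr6 (4.52 to 5.43 FPKM) and Tlr5 (1.79 to 8.76 FPKM) had the lowest means, although Tlr5 lay above Ly96 in the first Unc93b1 3d/3d αMARCO library. Tlr6 varied least over the 8 libraries, by 1.20-fold between the lowest and the highest CPM, and Tlr5 most, by 4.89-fold, followed by Cd14 with 4.21-fold and Tlr2 with 2.98-fold.

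**Figure D1:**
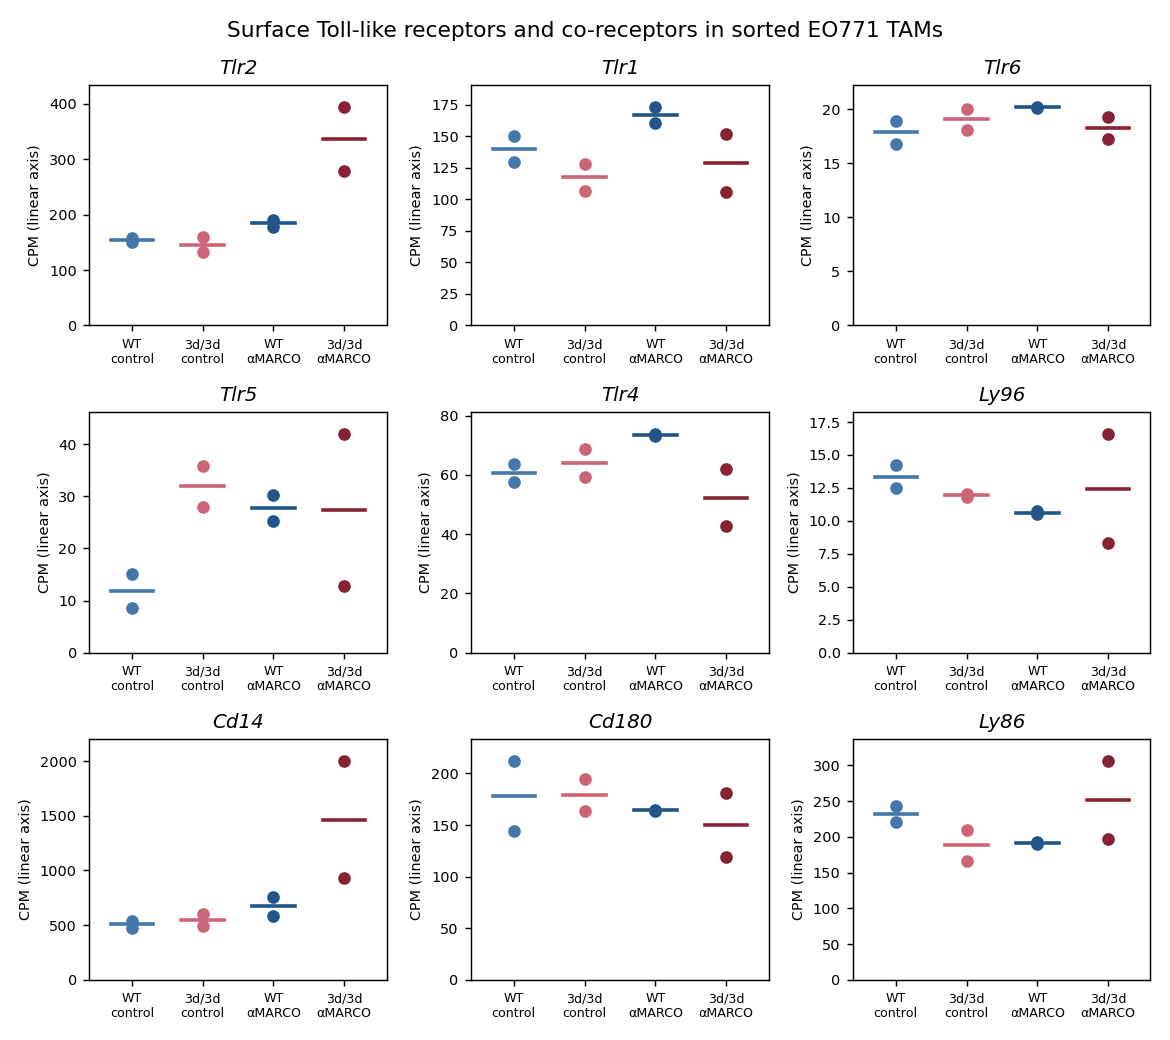
CPM of each member (vertical axis, linear, from 0) in the 4 groups on the horizontal axis, with 1 point per library and a bar at the mean of the 2 libraries. For Tlr5 the WT control mean is the lowest, with 1 Unc93b1 3d/3d αMARCO point between its libraries, and both Unc93b1 3d/3d αMARCO points lie above all others for Tlr2 and Cd14.

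Tlr5, the flagellin receptor, was at 15.0 and 8.59 CPM in WT control TAMs and at 35.9 and 28.0 CPM in Unc93b1 3d/3d control TAMs. These libraries did not overlap, and the WT level was lower (-1.45 ± 0.27, log2, SE), with an edgeR adjusted p of 0.0131. It was 30.3 and 25.3 CPM in WT αMARCO TAMs, again with no overlap with WT controls. The rise after αMARCO in WT mice was 1.24 ± 0.25 (log2, SE), a 2.36-fold increase, with an edgeR adjusted p of 0.012. In Unc93b1 3d/3d αMARCO TAMs Tlr5 was at 42.0 and 12.7 CPM, so that the first library held the highest level of all 8 and the second lay within the WT control range. There the change was -0.22 ± 0.53 (log2, SE), with an edgeR adjusted p of 0.923. The αMARCO effect in WT minus that in Unc93b1 3d/3d was 1.45 ± 0.69 (log2, SE), with an edgeR adjusted p of 0.338. Without the first Unc93b1 3d/3d αMARCO library it was 2.56 and without the second 0.82, so the size of the difference depended on the library. Under αMARCO, Tlr5 in WT over Unc93b1 3d/3d was 0.02 (log2) and not called. It was 1.13 without the first Unc93b1 3d/3d αMARCO library and -0.60 without the second, in opposite directions.

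Both Tlr5 calls share the WT control libraries, and neither held in every alternative. In 1 model over all 8 libraries, whose pooled spread takes in the discordant Unc93b1 3d/3d αMARCO pair, neither was called. The differences there were about as large, at -1.44 for the genotype (adjusted p = 0.22) and 1.23 for αMARCO (adjusted p = 0.224), on the log2 scale. The genotype call was lost without the first Unc93b1 3d/3d control library (-1.26, edgeR adjusted p = 0.0778), and the αMARCO call without the first WT αMARCO library (1.11, edgeR adjusted p = 0.0805). The direction held in all 12 alternatives of each comparison.

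Other genes moved with Tlr5. Among the classical monocyte markers, F13a1 was lower in WT controls than in Unc93b1 3d/3d controls (-1.56 ± 0.16, log2, SE; edgeR adjusted p = 0.00115), as was Ccr2 (-0.58 ± 0.16; 0.0455). After αMARCO in WT mice F13a1 rose by 1.07 ± 0.17 (log2, SE; edgeR adjusted p = 0.00641) and Ccr2 by 0.69 ± 0.16 (0.0187). The other 8 markers of that list did not pass the test in either comparison. Its summed level was 1753 and 1209 CPM in WT controls, 2108 and 1713 CPM in Unc93b1 3d/3d controls and 1832 and 2022 CPM in WT αMARCO, and no marker of the list was at 0. Macrophage markers were mixed. Of 12, Itgam was called higher and 4, among them Mertk, Apoe and Mrc1, lower in WT controls than in those of Unc93b1 3d/3d. After αMARCO in WT mice 1 of the 12 rose and 4, namely Adgre1, C1qa, C1qb and C1qc, fell. More markers of nonclassical monocytes, T cells, NK cells, neutrophils and dendritic cells were called the opposite way to Tlr5 than its own way. Of 12 nonclassical monocyte markers, 5 were called higher and 1 lower in WT controls, and 1 rose and 5 fell after αMARCO. Among them Spn was higher in WT controls by 2.82 ± 0.13 and fell after αMARCO by 1.37 ± 0.12 (log2, SE). Their summed level was 1811 and 1817 CPM in WT controls, 746 and 597 CPM in Unc93b1 3d/3d controls and 1599.7 and 1782 CPM in WT αMARCO. Of 8 NK cell markers, 3 were called higher in WT controls and 4 fell after αMARCO, and of the neutrophil markers 2 of 9 tested were higher and 4 of 7 fell. The summed level of neutrophil markers was 354 and 333 CPM in WT controls, 273 and 236 CPM in Unc93b1 3d/3d controls and 386 and 385 CPM in WT αMARCO. That sum, in which the most abundant genes weigh most, was not lower after αMARCO. The median change over the 7 tested was nevertheless -2.32 (log2). Summed T cell markers were 122 and 139 CPM in WT controls, 85.9 and 74.5 CPM in Unc93b1 3d/3d controls and 16.3 and 28.0 CPM in WT αMARCO. Of the 10 T cell markers, 9 were called higher and 1, Cd4, lower in WT than in Unc93b1 3d/3d controls, and all 10 fell after αMARCO in WT mice. Summed dendritic cell markers were 684 and 396, 118.8 and 82.8, and 100.6 and 103 CPM in the same groups, with 3 of 8 tested called higher in WT controls and 5 of 8 lower after αMARCO. Of 5 B cell markers tested, 2 were higher and 1, Cd22, was lower in WT controls. Summed B cell markers were 123 and 174 CPM in WT controls, 59.1 and 56.5 CPM in Unc93b1 3d/3d controls and 84.8 and 94.7 CPM in WT αMARCO. Summed tumor and stromal cell markers were 335 and 310.3, 207 and 178, and 162 and 150.1 CPM in the same groups. Pecam1 made up most of that sum in WT controls, at 203 and 199 CPM against 28.9 and 24.1 CPM in Unc93b1 3d/3d controls. It was higher in WT controls by 2.91 ± 0.12 and Col3a1 was lower (-0.67 ± 0.10, log2, SE). The median over the 8 tested of that list was -0.55 (log2, WT over Unc93b1 3d/3d), opposite in direction to the sum. The part of these cells in the Tlr5 result was not tested.

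Tlr2, the receptor shared by both lipopeptide-sensing pairs, was at 158.5 and 150.2 CPM in WT controls, 159.4 and 132.3 CPM in Unc93b1 3d/3d controls, 178 and 190.1 CPM in WT αMARCO and 278 and 394 CPM in Unc93b1 3d/3d αMARCO. The controls of both genotypes overlapped, and the Unc93b1 3d/3d αMARCO libraries lay above all others. The change in Unc93b1 3d/3d mice was 1.21 ± 0.28 (log2, SE), with an edgeR p-value of 0.00476 before adjustment and an adjusted p of 0.823. It was 0.26 ± 0.08 (log2, SE) in WT mice, where the edgeR adjusted p was 0.0275 but the change was under the minimum of 0.5. The difference of these effects was -0.95 ± 0.28 (log2, SE), with an edgeR p-value of 0.00828 before adjustment and an adjusted p of 0.318. It was -1.18 without the first Unc93b1 3d/3d αMARCO library and -0.69 without the second. DESeq2 called the change in Unc93b1 3d/3d mice (adjusted p = 0.0395). In edgeR that change was 1.45 (log2) without the first αMARCO library and 0.93 without the second. With all 8 libraries in 1 model it was 1.20 and not called (adjusted p = 0.104).

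Tlr1 and Tlr6, the partners of TLR2, differed in abundance by 6.56 to 9.93 times per length. Tlr1 was at 129 and 150.2 CPM in WT controls, 107 and 128 CPM in Unc93b1 3d/3d controls, 173 and 161 CPM in WT αMARCO and 152 and 106 CPM in Unc93b1 3d/3d αMARCO. The WT αMARCO libraries were highest, 0.27 ± 0.09 (log2, SE) above WT controls, with an edgeR adjusted p of 0.0477 and a change under the minimum of 0.5. Tlr6 lay between 16.8 and 20.3 CPM in all libraries, and its largest difference, αMARCO over control in WT, was 0.18 ± 0.12 (log2, SE; edgeR adjusted p = 0.281). Tlr2 to Tlr1 was 1.11 to 1.66 per length in the 3 other groups and 2.04 and 4.13 in Unc93b1 3d/3d αMARCO.

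Cd14 (ENSMUSG00000051439), the co-receptor that delivers ligand to TLR4 and TLR2, lies on the minus strand at chr18:36725074-36726736. It was at 542 and 475 CPM in WT controls, 604 and 496 CPM in Unc93b1 3d/3d controls, 585 and 762 CPM in WT αMARCO and 930.2 and 2000.2 CPM in Unc93b1 3d/3d αMARCO. Its pattern followed that of Tlr2, with overlapping controls and the 2 highest levels in Unc93b1 3d/3d αMARCO, and the second library of that group was 2.15 times the first. The change in Unc93b1 3d/3d mice was 1.43 ± 0.43 (log2, SE), with an edgeR p-value of 0.0156 before adjustment and an adjusted p of 0.823. Without the second αMARCO library it was 0.76 and without the first 1.88. DESeq2 called the change over all 4 libraries (adjusted p = 0.0426). In WT mice the change was 0.41 ± 0.13 (log2, SE), with an edgeR adjusted p of 0.0372 and under the minimum of 0.5. It ranged from 0.21 to 0.60 with 1 library left out, at 0.51 without the first WT control and 0.60 without the first WT αMARCO library. With a correction for gene length it was 0.58 and called (adjusted p = 0.00862). The difference of the effects was -1.01 ± 0.47 (log2, SE), with an edgeR adjusted p of 0.331. Without the first Unc93b1 3d/3d αMARCO library it was -1.46, and without the second it was -0.36.

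**Figure D2:**
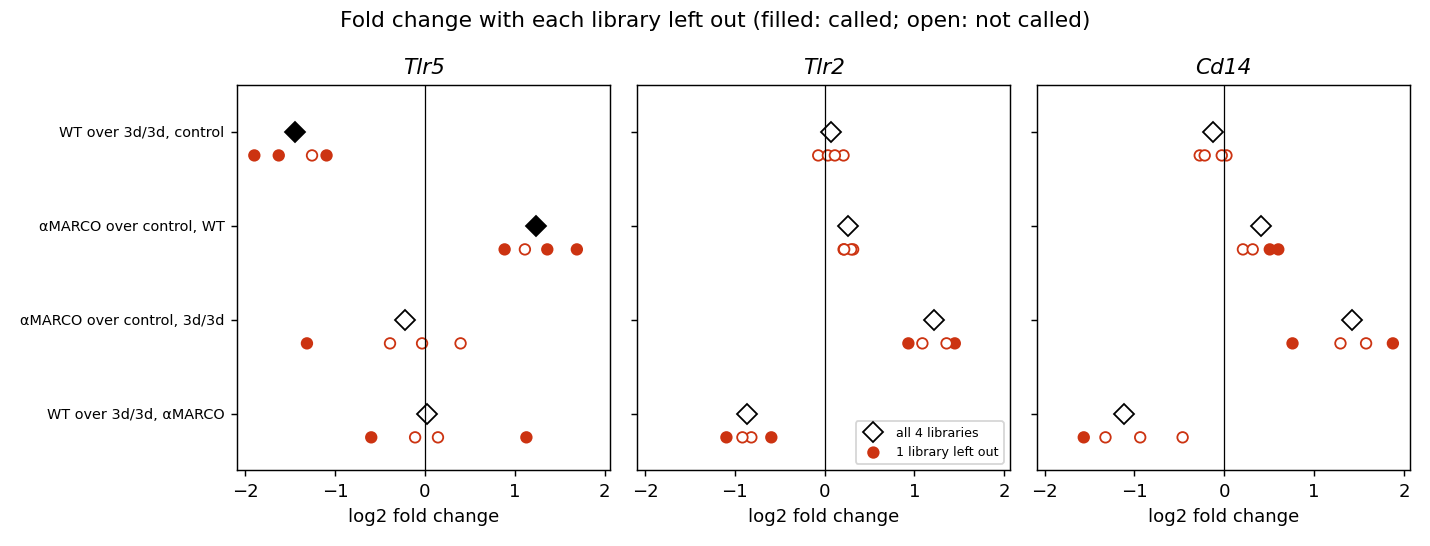
Log2 fold change (horizontal axis) of Tlr5, Tlr2 and Cd14 in the 4 comparisons on the vertical axis, with diamonds for all 4 libraries of a comparison and circles for each library left out. Filled marks are called and open marks are not, and a circle rests on a fit with a lone library in a group. Tlr5 changes sign in Unc93b1 3d/3d mice, from -1.31 to 0.40, with the αMARCO library left out, whereas Tlr2 and Cd14 stay above 0 there.

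Tlr4, the lipopolysaccharide receptor, was at 57.5 and 63.7 CPM in WT controls, 59.3 and 68.7 CPM in Unc93b1 3d/3d controls, 73.1 and 73.8 CPM in WT αMARCO and 62.1 and 42.6 CPM in Unc93b1 3d/3d αMARCO. The rise in WT mice was 0.29 ± 0.08 (log2, SE), with an edgeR adjusted p of 0.0265 and under the minimum of 0.5. Under αMARCO, Tlr4 in WT over Unc93b1 3d/3d was 0.49 (log2) and not called. It was 0.79 without the first Unc93b1 3d/3d αMARCO library and 0.25 without the second. Ly96, which encodes its obligate partner MD-2, was at 14.2 and 12.5 CPM in WT controls and at 10.7 and 10.5 CPM in WT αMARCO, a difference of -0.32 ± 0.16 (log2, SE; edgeR adjusted p = 0.137). Ly96 was at 12.1 and 11.8 CPM in Unc93b1 3d/3d controls, and the Unc93b1 3d/3d αMARCO libraries held both its lowest and its highest level, 8.30 and 16.6 CPM. Per length, Ly96 to Tlr4 was 1.35 and 1.06 in WT controls, 1.11 and 0.936 in Unc93b1 3d/3d controls and 0.799 and 0.777 in WT αMARCO. It was 0.728 and 2.12 in Unc93b1 3d/3d αMARCO, so that group spanned the range of all others. These ratios are a description and were not tested.

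Cd180, the TLR4-like receptor of B cells and macrophages, was at 144.2 and 211.9 CPM in WT controls, 164 and 194.5 CPM in Unc93b1 3d/3d controls, 164.3 and 163.9 CPM in WT αMARCO and 181 and 118.8 CPM in Unc93b1 3d/3d αMARCO. All 4 groups overlapped in each comparison, and its fitted differences lay between -0.25 and 0.13 (log2). B cell markers summed to 123 and 174 CPM in WT controls, 59.1 and 56.5 CPM in Unc93b1 3d/3d controls, 84.8 and 94.7 CPM in WT αMARCO and 51.6 and 61.1 CPM in Unc93b1 3d/3d αMARCO. Among them Ms4a1 was at most 1.84 CPM, while Cd79b and Ighm were called higher in WT controls than in those of Unc93b1 3d/3d. Their part in the Cd180 level was not tested. Ly86, which encodes its partner MD-1, was at 221 and 243 CPM in WT controls, 167 and 210.0 CPM in Unc93b1 3d/3d controls, 189.6 and 192 CPM in WT αMARCO and 197 and 306 CPM in Unc93b1 3d/3d αMARCO. Ly86 was the only member past adjusted p in WT mice that was lower after αMARCO (-0.27 ± 0.08, log2, SE; edgeR adjusted p = 0.0272), under the minimum of 0.5. It did not pass without either WT αMARCO library (0.172 and 0.116) or without the second WT control (0.0797), with the gene length correction (0.0741) or in 1 model over all 8 libraries (0.491). Per length, Ly86 to Cd180 was 1.26 to 1.90 in 7 libraries and 3.20 in the second Unc93b1 3d/3d αMARCO library.

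**Figure D3:**
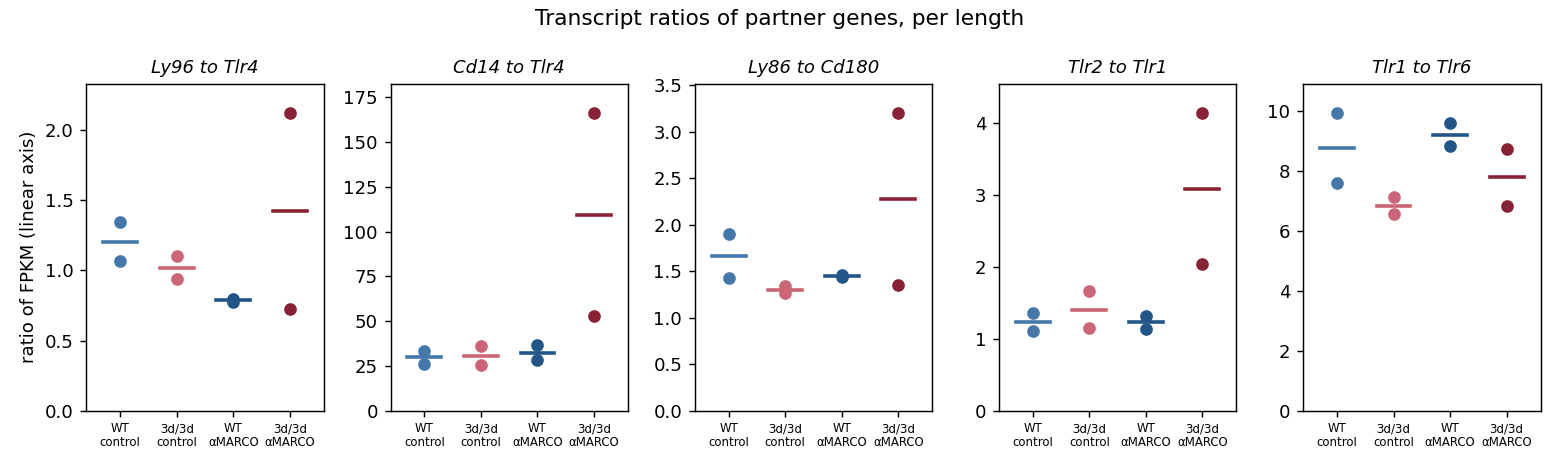
Ratio of per-length levels (FPKM, linear axes from 0) of partner genes in the 4 groups, with 1 point per library and a bar at the mean. In 4 of the 5 ratios the second Unc93b1 3d/3d αMARCO library is the highest point, at 2.12 for Ly96 to Tlr4 and 4.13 for Tlr2 to Tlr1, and Tlr1 to Tlr6 is the exception.

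Counts of calls were read against all genes tested. For WT over Unc93b1 3d/3d in controls, 1 of 9 members was called, against 13% of 15600 genes. Libraries of the groups did not overlap for 4 members (Tlr1, Tlr5, Ly96 and Ly86), against 63.1% of all genes. For αMARCO over control in WT mice, 1 of 9 was called against 20.7% of 15630 genes, and 6 of 9 passed the adjusted p alone against 35.1%. This count was 1 without either WT αMARCO library, 5 without the first WT control, 3 without the second, 4 with DESeq2, 3 with the replicate block and 0 in 1 model over all 8 libraries. Of these 6, Tlr1, Tlr2, Tlr4, Tlr5 and Cd14 were higher and Ly86 was lower. Libraries did not overlap for 8 members, all but Cd180, against 70.9% of all genes. The median over the members was 0.26 (log2) beside -0.01 over all genes tested.

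In Unc93b1 3d/3d mice, αMARCO over control gave no call among the members and none among all genes (0% of 15428) with edgeR, while 744 genes and 2 members, Tlr2 and Cd14, had an unadjusted p under 0.05. DESeq2 called 53 genes there. Libraries did not overlap for the same 2 members, against 38.9% of genes. WT over Unc93b1 3d/3d under αMARCO also gave no call (0% of 15722), with 1076 genes and 2 members, again Tlr2 and Cd14, at an unadjusted p under 0.05, and DESeq2 called 195 genes. Tlr2 was at -0.87 ± 0.24 and Cd14 at -1.12 ± 0.43 (log2, WT over Unc93b1 3d/3d, SE; edgeR adjusted p = 0.587 and 0.709), and libraries did not overlap for 6 members, these and Tlr1, Tlr4, Tlr6 and Ly86, against 44.3% of genes. Tlr2 was -1.09 without the first Unc93b1 3d/3d αMARCO library and -0.59 without the second. Cd14 was -1.56 without the first and -0.46 without the second. These comparisons share the Unc93b1 3d/3d αMARCO libraries. The difference of the αMARCO effects gave no call (0% of 16620) with edgeR, with 2549 genes and 1 member, Tlr2, at an unadjusted p under 0.05, and DESeq2 called 200.

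**Figure D4:**
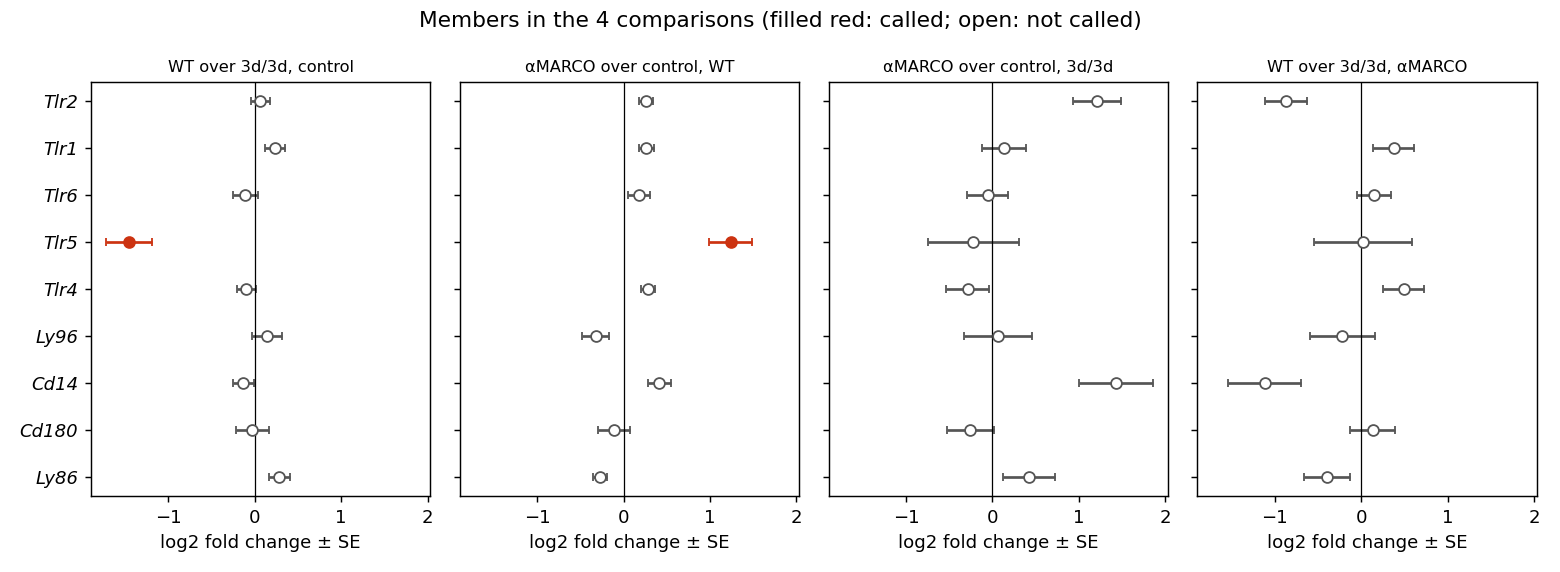
Log2 fold change with its SE (horizontal axis) of each member (vertical axis) in the 4 comparisons, from edgeR on the 4 libraries of each, with filled red points for called members. Tlr5 is the only red point, at -1.45 for the genotype in controls and 1.24 for αMARCO in WT mice, and the bars are widest where the Unc93b1 3d/3d αMARCO libraries enter.

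With the first Unc93b1 3d/3d αMARCO library left out, the comparison with Unc93b1 3d/3d controls called 6 members and 5500 genes, and with the second left out 2 members and 571 genes. In both fits the lone αMARCO library was taken to vary as the others do, so these calls do not measure the spread within that group. Tlr5 was -1.31 without the first library and 0.40 without the second, so its direction in these mice depended on the library.

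Genes downstream of the members were read from lists chosen by function. Of 18 targets of the MyD88 arm, which all surface TLRs use, 14 were higher and none lower in controls of WT mice than of Unc93b1 3d/3d mice, with a median of 0.88 (log2) beside -0.004 over all genes. Over all 15600 genes tested there, 1027 were called higher and 998 lower. For αMARCO in WT mice, 1393 of 15630 genes were called higher and 1843 lower. Endosomal TLR7 and TLR9 use the same adaptor. Il12b, a subunit of IL-12, was at 26.1 and 23.2 CPM in WT and at 0.816 and 0.710 CPM in Unc93b1 3d/3d controls, a difference of 4.99 ± 0.23 (log2, SE; edgeR adjusted p = 3.36e-06). Nfkbia, the NF-κB inhibitor, was higher by 1.45 ± 0.10 (5.61e-05) and Il6 by 1.42 ± 0.31 (0.0143). The nonclassical monocyte, dendritic, NK and T cell markers given above were also mostly called higher where they were called, and their part in this result was not tested. After αMARCO in WT mice 3 of the 18 rose and 4 fell, with a median of 0.02, while more of those markers fell than rose. Saa3, a serum amyloid A protein, rose by 1.72 ± 0.32 (log2, SE; edgeR adjusted p = 0.00312), while Il12b fell by 3.40 ± 0.17 (1.93e-05) and Il6 fell by 1.10 ± 0.26 (0.0102).

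Of 12 targets of the TRIF arm, which TLR4 shares with TLR3, 2 were higher and 1 lower in WT controls. Ccl5, a T cell chemoattractant, was higher by 2.54 ± 0.19 (log2, SE; edgeR adjusted p = 0.000382), Irf1 by 0.81 ± 0.15 (0.0113), and Rsad2, the antiviral protein viperin, was lower (-0.59 ± 0.14; 0.0203). After αMARCO in WT mice Ccl5 fell by 1.497 ± 0.08 (log2, SE; edgeR adjusted p = 1.93e-05) and none of the other 11 was called. The T and NK cell markers that were called went the same way as Ccl5 in both comparisons, except Cd4 for the genotype, and their part in the Ccl5 result was not tested.

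Of the adaptors and kinases between receptors and targets, none of 22 was called for the genotype in controls, and after αMARCO in WT mice Irak2, a kinase of the Myddosome, was the only 1 of 21 called. It was at 83.8 and 88.2 CPM in WT controls and 154.5 and 172 CPM in WT αMARCO, a rise of 0.93 ± 0.08 (log2, SE; edgeR adjusted p = 0.000117). Of 15 negative regulators, 4 were higher in WT controls, among them Irak3, an inhibitory IRAK family member (1.07 ± 0.14, log2, SE; edgeR adjusted p = 0.00159), and Tnfaip3, which encodes A20 (0.92 ± 0.12; 0.00122). Cd200r1, an inhibitory receptor, was higher by 0.81 ± 0.10 (0.000838) and fell after αMARCO in WT mice by 0.78 ± 0.08 (0.000223). Sigirr, a TIR-domain inhibitor, fell there too, by 1.26 ± 0.24 (0.00327).

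Among 9 chaperones and trafficking proteins, Unc93b1 was the only call for the genotype in controls, with the limits given above. The chaperones Hsp90b1 and Cnpy3, on which surface TLRs depend to leave the endoplasmic reticulum, were not called in either WT comparison. Cnpy3 was just under the minimum for the genotype, at 0.497 ± 0.094 (log2, SE; edgeR adjusted p = 0.00776), and is named after its value was seen. The related Cnpy4 fell after αMARCO by 0.62 ± 0.12 (log2, SE; edgeR adjusted p = 0.00326). Of 6 measured accessory receptors, Clec7a, the β-glucan receptor, and the integrin gene Itgb2 were higher in WT controls by 0.84 ± 0.21 and 0.71 ± 0.10 (log2, SE; edgeR adjusted p = 0.0483 and 0.00239), as was Itgam, which encodes the CD11b of the gate. Msr1, a scavenger receptor, was lower (-0.76 ± 0.11; 0.0026). Mfge8, a bridging protein for apoptotic cells, fell after αMARCO by 2.01 ± 0.26 (0.00171). No gene of these lists was called by edgeR where the Unc93b1 3d/3d αMARCO libraries entered. The same held for all genes tested there (0% of 15428, 15722 and 16620). The alternatives that called genes in these comparisons are given below.

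The genes whose pattern was most like a member were ranked by the root mean square difference of log2 CPM, each gene centered on its own mean, over the 8 libraries, for the 3 members whose group means spanned at least 1 log2 unit. For Tlr2 these were Sppl3 (0.08), Plk3 (0.13) and Neurl3 (0.14) among 16620 genes, where Tlr2 itself varied by 0.49 about its mean. For Cd14, which varied by 0.64, they were BC028528 (0.16), Phlda1 (0.19) and Morn2 (0.20). For Tlr5, which varied by 0.75, the nearest were Gm17249 (0.18), Ube4bos3 (0.21) and Gm22200 (0.21), all at mean levels under 1 CPM. With a prior count of 0.5 in place of 2, 3 of 3 nearest genes were shared for Tlr2 and for Cd14, and 1 of 3 for Tlr5, whose nearest were then Gm17249, Gm17210 and Raph1. Raph1, at 66.0 CPM on average, was at 40.8 and 33.5 CPM in WT controls, 90.3 and 75.3 CPM in Unc93b1 3d/3d controls, 76.8 and 76.8 CPM in WT αMARCO and 93.3 and 41.1 CPM in Unc93b1 3d/3d αMARCO.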

How the data were processed

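The authors deposited 3 tables of read counts per gene with FPKM beside them; 95230 counts held by more than 1 table were identical, so the tables were joined by gene ID into 8 libraries, and a gene missing from a table, which held genes with 2 or more counts, was set to 0. According to the methods and processing notes the authors trimmed with fastp, aligned to GRCm38 with HISAT2 2.0.5 and counted with featureCounts 1.5.0, and the FPKM deposited by the authors are unadjusted for library composition; strandedness is not given in the sources used here. The fold changes and p-values of the authors' own comparisons, also in the tables, were not used.

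Counts were scaled by TMM and tested with edgeR 4.0.16 (quasi-likelihood, filterByExpr, robust) on the 4 libraries of each comparison, and the difference of the αMARCO effects in a model over all 8. P-values were adjusted by Benjamini-Hochberg over all genes tested, and calls needed an adjusted p up to 0.05 together with a log2 fold change of 0.5 or more in size. The SE given with an edgeR fold change is the size of that change divided by the square root of the F statistic of its test. The script was tested on simulated data. Library totals were 15182618 to 26411936 counts, and the 2 libraries of a group give only a rough estimate of its spread. DESeq2 1.42.0, its size factors, other filters and thresholds, 1 model over 8 libraries, a replicate block, a gene length correction and leaving out each library were alternatives; the prior count of log2 CPM was 2 or 0.5. Sequences came from RefSeq promoter windows and GENCODE M21 transcripts.

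Members and lists were chosen with earlier results of these data known. Besides the 9 members and Unc93b1, genes were named as up to 3 called genes of each list with the largest change and no overlap of libraries, and the 3 genes nearest in profile to a member whose group means spanned at least 1 log2 unit. Others, such as Cd4, Cd22, Spn and the called macrophage markers, were named after their values were seen, or are the genes of the sort and the antibody's target. Single-cell data of the study were not used here. Results of some marker genes are not reported here.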

Additional observations from a re-analysis of the deposited data

How the results depend on the processing

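Of 477 recomputed fold changes, those of 9 members in 4 comparisons and of Tlr2, Tlr5 and Cd14 in the difference of effects, 422 kept their direction and their side of the threshold, 4 lost and 28 gained a call with their sign kept, and 23 changed sign, of which 1 (Tlr5 for the genotype under αMARCO) was called. Several choices moved the counts of calls. With all 8 libraries in 1 model, 364 genes and 0 members were called for the genotype in controls, 164 genes and 0 members for αMARCO in WT mice, 1 gene for αMARCO in Unc93b1 3d/3d mice and 108 genes for the genotype under αMARCO. DESeq2 called 53 genes and 2 members for αMARCO in Unc93b1 3d/3d mice, 195 genes for the genotype under αMARCO and 200 for the difference of effects. With no filter beyond 1 count these were 174 genes and 2 members, 107 genes and 152 genes. A fold threshold of 1 left 951 genes for the genotype in controls and 1366 for αMARCO in WT mice, where no minimum on the fold change gave 5487 genes and 6 members. The gene length correction called 2 members for αMARCO in WT mice, also with the replicate block, and 2 genes for the difference of effects. The cause was not tested.

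The labels describe no pairing of replicate numbers, and deviations of same-numbered libraries correlated at -0.077 to 0.135. With the replicate block 5 genes were called for αMARCO in Unc93b1 3d/3d mice and 97 for the genotype under αMARCO, and 1 and 151 with the length correction added. No call of a member was lost or gained with the block alone. Under the block Ly96 turned to -0.014 for αMARCO in Unc93b1 3d/3d mice, to -0.10 with the length correction added and to -0.065 with the length correction alone. For the genotype in controls the length correction turned Tlr2 to -0.016 and Ly96 to -0.013, and with the block to -0.011 and -0.016.

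Leaving out 1 library at a time, where a lone library was taken to vary as the others do, gave 0 to 1 members for the genotype in controls, 1940 to 3951 genes and 1 to 2 members for αMARCO in WT mice (Cd14 in place of Tlr5 without the first WT αMARCO library), 1 to 5500 genes and 0 to 6 members for αMARCO in Unc93b1 3d/3d mice, 17 to 6366 genes and 0 to 7 members for the genotype under αMARCO, and 0 to 6440 genes and 0 to 6 members for the difference of effects. The upper ends in the last 3 came without the first Unc93b1 3d/3d αMARCO library. These changes of sign came with it. For the genotype in controls Tlr2 was -0.071 to 0.21, Tlr4 -0.19 to 0.0062 and Cd14 -0.27 to 0.024, with either Unc93b1 3d/3d control library deciding the sign, and Cd180 was -0.32 to 0.24, at 0.094 without the second of these. For αMARCO in WT mice Cd180 was -0.37 to 0.19, by which WT control was left out. For αMARCO in Unc93b1 3d/3d mice, the ends of the range came without either αMARCO library for Tlr1 (-0.14 to 0.37), Tlr5 (-1.31 to 0.40), Ly96 (-0.52 to 0.49) and Cd180 (-0.58 to 0.016), and Tlr6 was -0.13 to 0.021, at 0.017 without the second αMARCO library. For the genotype under αMARCO the same libraries set the ends for Tlr5 (-0.60 to 1.13), Ly96 (-0.64 to 0.36) and Cd180 (-0.14 to 0.47), and Tlr5 was -0.11 without the first WT library. The differences of effects of the remaining 6 members are not reported, and among them those of Tlr1, Cd180 and Ly96 also changed sign with 1 library left out.

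Relative levels from the deposited FPKM in place of TMM-scaled CPM moved by less than the spread between replicates in 34 of 36 group means. Members at low counts, such as Tlr5 and Ly96, have the widest counting error.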

Other observations

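The other 7 Toll-like receptors, which sit in endosomes in mice, gave no call in any comparison with edgeR. Tlr7, the receptor of single-stranded RNA that depends on UNC93B1, was at 67.4 and 82.2 CPM in WT controls, 103.0 and 101.9 CPM in Unc93b1 3d/3d controls, 71.0 and 73.9 CPM in WT αMARCO and 82.2 and 62.5 CPM in Unc93b1 3d/3d αMARCO. The WT and Unc93b1 3d/3d controls did not overlap, and the difference was -0.47 (log2, WT over Unc93b1 3d/3d), under the minimum of 0.5. Tlr8 and Tlr9 differed between the Unc93b1 3d/3d αMARCO libraries, with 62.5 and 19.7 CPM for Tlr8 and 87.1 and 27.5 CPM for Tlr9, and the second library held the lowest level of all 8 for both, whereas Tlr2 and Cd14 were highest in it.

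Among 11 endogenous ligands of TLR2 and TLR4 that could be tested, none was called for the genotype in controls. After αMARCO in WT mice Saa3 was higher, as given above, and S100a8 and the proteoglycan decorin (Dcn) were lower, at -2.32 ± 0.46 and -1.07 ± 0.35 (log2, SE; edgeR adjusted p = 0.00931 and 0.0431). S100a8 was at 11.9 and 4.88 CPM in WT controls and 1.36 and 1.97 CPM in WT αMARCO. It is also a neutrophil marker, of which 4 of 7 tested were lower in the same comparison, with a median of -2.32 (log2) over the 7. The summed level of all listed neutrophil markers, in which abundant genes weigh most, was 354 and 333 CPM in WT controls and 386 and 385 CPM in WT αMARCO. The part of such cells was not tested. Dcn is also a stromal marker, and of the tumor and stromal cell markers 6 of 8 tested, Dcn included, fell in the same comparison, with a summed level of 335 and 310.3 CPM in WT controls and 162 and 150.1 CPM in WT αMARCO, and the part of those cells was not tested.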
